A study of Homo sapiens with 9 samples.

Results

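The genes described here encode the fibrous and network-forming proteins of the extracellular matrix: every collagen chain (symbol COL, a number, A and a number), every laminin chain (LAMA, LAMB or LAMC and a number) and the glycoproteins FN1, VTN, TNC, SPARC, THBS1, THBS2, NID1, NID2, FBN1 and FBN2. By this rule 66 of the 28216 genes of the counts table were members, namely 44 collagens, 12 laminins and 10 glycoproteins. RNAseq was performed on 9 libraries from a pair of human prostate cancer cell lines, both derived from metastases and both labelled wild type. The 3 PC3 libraries came from untreated cells grown in F12K medium with serum. The LNCaP cells (clone FCG) first spent 24 h in RPMI that lacked phenol red and held charcoal-stripped serum, and then received either 10 nM androgen (DHT by the labels, while the main text of the study names another androgen) or the vehicle, 0.01% ethanol, for 48 h, with 3 libraries each. PC3 and LNCaP cells therefore differed in medium and serum as well as in line, and these cannot be told apart. Nothing in the labels states that the 3 libraries of a group came from separate cultures, so the p-values measure the spread between these libraries, which may be technical.

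Collagens are trimers of chains that wind into a triple helix. Fibrillar collagens (types I, II, III, V, XI) build tensile fibres, type IV collagen forms the sheet of the basement membrane, and type VI collagen forms beaded filaments. Laminins, each a cross of an α, a β and a γ chain, polymerise into the other sheet of the basement membrane, and nidogens link both. In the prostate gland, luminal epithelial cells rest on such a basement membrane, and fibronectin, tenascin-C and fibrillins belong mainly to the surrounding stroma.

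Each library held 17397706 to 25640325 counts on genes. A count of 0 allowed up to 3 counts, or 0.117 to 0.172 CPM (counts scaled to the size of the library), for counting error only. The epithelial genes EPCAM, KRT8, KRT18 and CDH1 were all detected, with a summed level of 451 to 462 CPM in PC3, 3263 to 3504 in androgen-treated and 1335 to 1350 in vehicle-treated LNCaP cells. Of the fibroblast markers DCN, LUM, PDGFRA and PDGFRB, the summed level was 4.21 to 8.02 CPM in PC3, 0.187 to 0.511 in androgen-treated and 1.59 to 2.07 in vehicle-treated LNCaP cells, with DCN at no more than 2 counts anywhere. Of the endothelial markers PECAM1, CDH5, VWF and TEK, the summed level was 2.03 to 3.39, 6.35 to 7.51 and 17.1 to 19.3 CPM in the same order, with CDH5 at 0 throughout and VWF at up to 335 counts after vehicle. Of the leukocyte markers PTPRC, CD68 and CD3E it was 32.4 to 34.2, 15.0 to 21.1 and 1.71 to 2.41 CPM, nearly all of it CD68, with PTPRC at no more than 7 counts and CD3E at 0. The part of such cells in the results was not tested. Transcripts that are abundant in PC3 cells (VIM, CAV1, CAV2, EPHA2) were present in LNCaP libraries at 0.329% to 0.937% of the PC3 median, highest in androgen-treated library 1 (0.937%) and, within the vehicle group, in library 1 (0.557%). Several matrix genes with low counts in LNCaP cells were also highest in these libraries, and the part of carry-over between libraries in those counts was not tested. For this reason such genes are given with their counts.

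The amount and the make-up of matrix RNA differed between the lines. The members took 0.640% to 0.798% of all counts in PC3, 0.149% to 0.162% in androgen-treated and 0.140% to 0.153% in vehicle-treated LNCaP cells. Collagens summed to 2824, 2916 and 3328 CPM in the 3 PC3 libraries from lowest to highest, as compared to 281 to 309 CPM after androgen and 337 to 363 CPM after vehicle. Laminins were closer, at 1459 to 1930 CPM in PC3, 1138 to 1294 CPM in androgen-treated and 555 to 607 CPM in vehicle-treated LNCaP cells. Glycoproteins were at 2084 to 2794 CPM, 118 to 126 CPM and 408 to 451 CPM. None of the ranges of these 3 sums overlapped between groups, while the members' shares of all counts overlapped between both LNCaP groups. CPM were scaled with TMM factors over the 9 libraries. In a bulk sample, RNA per cell and the number of cells that express a gene cannot be told apart.

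Levels per kb here and below divide by the union of all annotated exons of a gene. This length was 18592 bases for LAMB1 and 6865 for LAMB2, so an order per kb depends partly on the annotation. Per kb of exon, the leading members of PC3 cells were COL6A1 (180 CPM per kb), COL6A2 (160), FN1 (96.5), COL5A2 (53.6), LAMB2 (44) and LAMA5 (37.7). In androgen-treated LNCaP cells the order was LAMC1 (83.2 CPM per kb), LAMB2 (28.3), COL6A1 (22.7), LAMA3 (16.1), COL6A2 (9.37) and FN1 (6.34). In vehicle-treated LNCaP cells LAMC1 (27.4), COL6A1 (25.7), FN1 (24.6) and LAMB2 (24.0) lay close together, followed by COL6A2 (8.76) and LAMA3 (7.33). Thus PC3 cells carried most RNA for type VI collagen and fibronectin, and androgen-treated LNCaP cells most for a laminin γ chain, which alone took 42.3% of the summed CPM of all members.

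Of the 66 members, 38 exceeded 3 CPM in at least 3 of the 9 libraries, 7 more exceeded 20 counts in a library, and 21 never did.

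**Figure D1:**
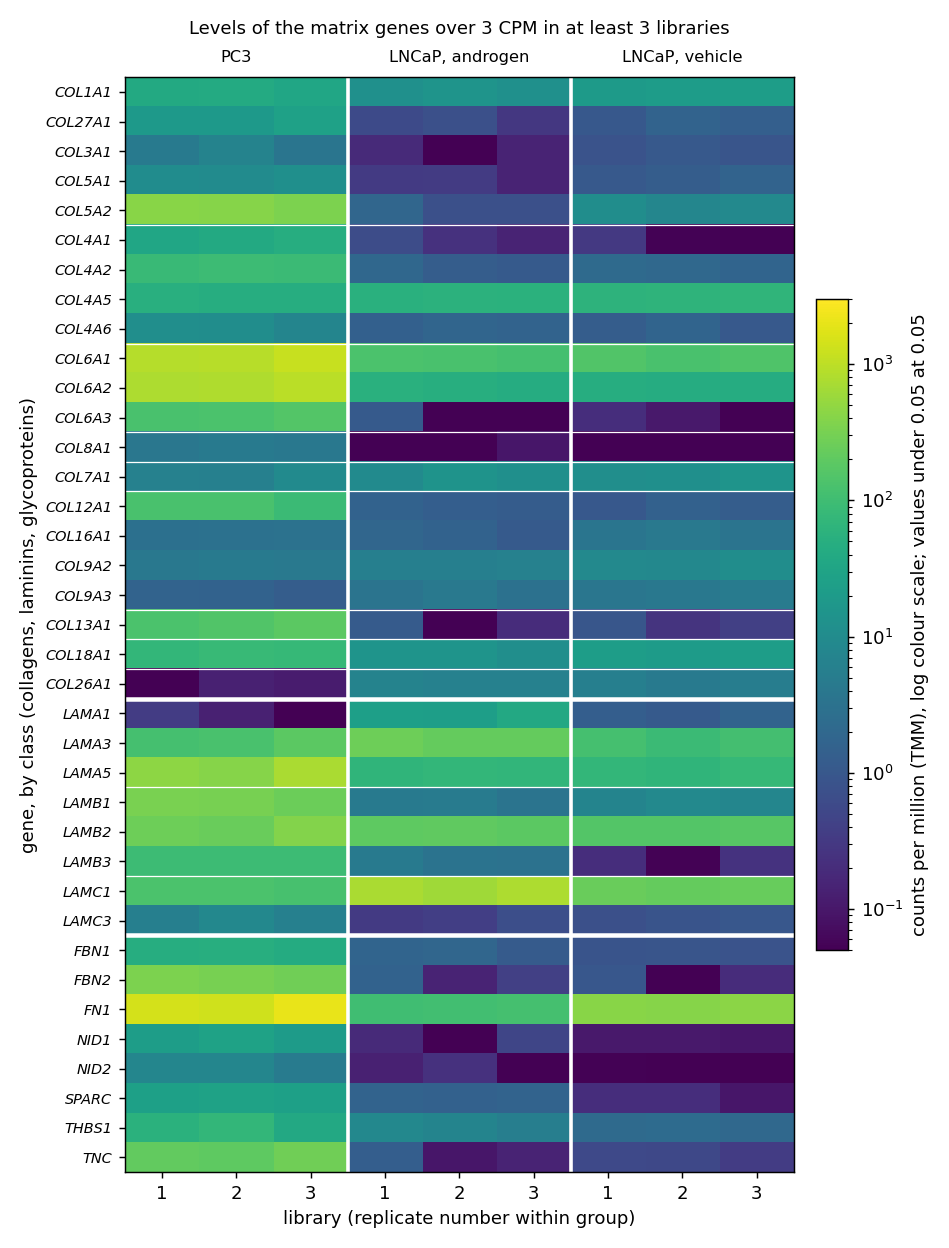
Heat map of CPM (TMM scaled, log colour scale) of 37 matrix genes above 3 CPM in at least 3 libraries (rows, by class) in the 9 libraries (columns, by group and replicate number). FN1, COL6A1 and COL6A2 are brightest in PC3, LAMC1 is brightest in androgen-treated LNCaP cells, and COL4A5, LAMB2 and COL7A1 have like colours in all groups.

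The effect of androgen on matrix RNA was examined in LNCaP cells, where treated and vehicle cells shared medium and handling. Of 20 members tested, 5 were called higher (LAMB3, LAMA1, THBS1, LAMC1, LAMA3) and 3 lower (COL5A2, FN1, COL16A1), while 12 were not called. A call required both an adjusted p under 0.05 in edgeR's quasi-likelihood test and a change of 2-fold or more. Over all 11697 genes tested, 6.54% were called higher and 7.49% lower. Among the 7 laminins tested 4 rose and none fell, and among the 11 collagens none rose and 2 fell. The median log2 fold change was 1.11 for laminins and -0.27 for collagens, beside -0.01 over all genes. In these families, LAMB3 and LAMA1 passed the filter through the androgen group alone, and COL5A2 and COL16A1 through the vehicle group alone. Of those above 3 CPM in all 6 libraries, 2 of 5 laminins were called higher and 0 of 8 collagens were called. Of the 20 members, 14 exceeded 3 CPM in all 6 libraries (2 called higher, 1 lower). Over all 10910 genes that did so, 5.49% were called higher and 5.55% lower. A further 3 members passed the filter through the androgen group alone and 2 through the vehicle group alone, and such genes had to differ.

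LAMC1, the γ1 chain that most laminins contain (1:183023420-183145592, plus strand, GRCh38), had 737, 612 and 759 CPM after androgen and 240, 225 and 229 CPM after vehicle. Its lowest androgen-treated library was far above the highest vehicle library, and LAMC1 rose by 1.57 ± 0.07 on the log2 scale (SE; adjusted p = 1.82e-10, edgeR, as for all adjusted p below). LAMA3, the α3 chain of epithelial anchoring laminins (18:23689453-23956222, plus strand), was at 261, 219 and 222 CPM as compared to 115, 91.7 and 112 CPM. It rose by 1.11 ± 0.07 on the log2 scale (adjusted p = 2.09e-08), just past the 2-fold limit.

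LAMA1, the α1 chain known mainly from embryonic basement membranes (18:6941742-7117797, minus strand), was at 24.7, 24.0 and 38.2 CPM after androgen and at 1.36, 1.12 and 1.69 CPM after vehicle (log2 fold change 4.34 ± 0.24, adjusted p = 3.07e-09). In PC3 cells LAMA1 had 9, 3 and 1 counts. Of the 74-nt stretches of its transcripts, 10.0% also occurred in transcripts of other genes or elsewhere in the genome. LAMB3, the β3 chain of the same anchoring laminins as LAMA3 (1:209614870-209652425, minus strand), had 98, 68 and 65 counts after androgen and 4, 1 and 5 counts after vehicle, a rise by 4.35 ± 0.33 on the log2 scale (adjusted p = 6.80e-08). The androgen-treated level, 3.23 to 4.53 CPM, stayed low beside the 93.2 to 93.9 CPM of PC3 cells. LAMB3 was highest in androgen-treated library 1, where the summed transcripts abundant in PC3 cells were highest as well, and without that library its log2 fold change was 4.19.

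The other laminins tested were not called. LAMB2, the β2 chain, was at 189 to 200 CPM after androgen and 159 to 175 CPM after vehicle (log2 fold change 0.21 ± 0.05, adjusted p = 0.00155), and LAMA5, the α5 chain common in adult epithelia, at 67.9 to 73.8 and 67.5 to 79.8 CPM (-0.08 ± 0.06, adjusted p = 0.275). LAMB1, the β1 chain, was at 4.44, 4.90 and 3.38 CPM as compared to 7.22, 8.91 and 7.69 CPM. Its log2 fold change of -0.93 ± 0.15 (adjusted p = 7.31e-05) stopped short of 2-fold, and it was called without androgen-treated library 2 (-1.05), without vehicle library 1 (-1.01) or without both libraries numbered 1 (-1.03). Thus the α chains LAMA1 and LAMA3, the β chain LAMB3 and the γ chain LAMC1 rose, whereas LAMA5, LAMB1 and LAMB2 were not called.

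**Figure D2:**
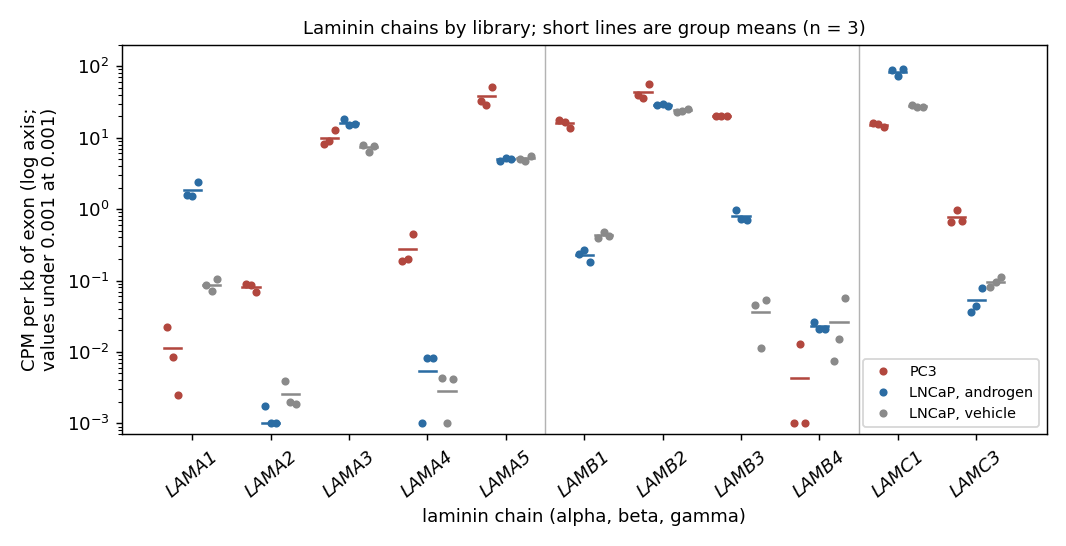
CPM per kb of exon (log axis) of 11 laminin chains, one point per library and a short line for each group mean (n = 3). LAMC1 and LAMA1 are highest in androgen-treated LNCaP cells, and LAMA5, LAMB1 and LAMB3 are highest in PC3 cells.

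Fibronectin, the ligand of several integrins and a scaffold on which other matrix proteins assemble, moved the other way. FN1 (2:215360440-215436073, minus strand) was at 103, 108 and 116 CPM after androgen as compared to 420, 404 and 447 CPM after vehicle, which was a fall by 1.99 ± 0.06 on the log2 scale (adjusted p = 5.21e-12). The groups did not overlap, and the spread within each was small. FN1 took 31.0% of the summed CPM of members in vehicle-treated cells. THBS1, a matricellular regulator of adhesion and of TGF-β activation, was at 8.46, 7.31 and 5.61 CPM after androgen and 2.20, 2.35 and 2.03 CPM after vehicle (log2 fold change 1.67 ± 0.17, adjusted p = 1.26e-06). This rise depended on strand: reads of the opposite strand at this locus numbered 1501 over the 9 libraries (24.7% of its stranded reads), and with unstranded counts THBS1 had 278, 237 and 204 counts after androgen and 194, 210 and 197 after vehicle (log2 fold change 0.12, adjusted p = 0.292). No other glycoprotein was tested here. SPARC, which binds collagen, had 36, 31 and 33 counts after androgen and 4, 4 and 2 after vehicle, under the filter.

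Among collagens, COL5A2, a fibrillar chain that joins type I fibres (2:189031898-189225312, minus strand), had 41, 15 and 15 counts after androgen and 213, 146 and 178 counts after vehicle. It fell by 3.04 ± 0.25 on the log2 scale (adjusted p = 1.52e-07). Library 1 was the highest of the androgen group, and without it COL5A2 fell by 3.65. COL16A1, a fibril-associated collagen (1:31652263-31704319, minus strand), was at 1.90, 1.57 and 1.14 CPM as compared to 3.56, 4.32 and 3.47 CPM, a fall by 1.32 ± 0.19 (adjusted p = 3.89e-05). Other collagens stayed under 2-fold. COL1A1, a chain of the main fibrillar collagen, had a log2 fold change of -0.74 ± 0.10 (adjusted p = 1.21e-05), COL18A1, the source of endostatin, -0.73 ± 0.09 (adjusted p = 8.58e-06) and COL9A2, of type IX collagen, -0.69 ± 0.13 (adjusted p = 0.000248). COL6A1 (-0.21 ± 0.05), COL6A2 (0.07 ± 0.06), COL4A5 (-0.24 ± 0.06), COL7A1 of anchoring fibrils (-0.14 ± 0.14), COL9A3 (-0.27 ± 0.17) and COL26A1 (0.32 ± 0.12) differed by less, with adjusted p-values between 0.00257 for COL4A5 and 0.371 for COL7A1. Under the filter, collagens without overlap between groups went both ways. Among those with fewer counts after androgen were COL3A1 (4, 1 and 3 against 16, 20 and 18 after vehicle), COL5A1 (7, 7 and 3 against 21, 24 and 33) and COL27A1 (13, 15 and 6 against 20, 31 and 28). COL23A1 had more after androgen (17, 31 and 26 against 3, 4 and 4). These genes were not in the reported fit, and the share of all genes without overlap was not counted.

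**Figure D3:**
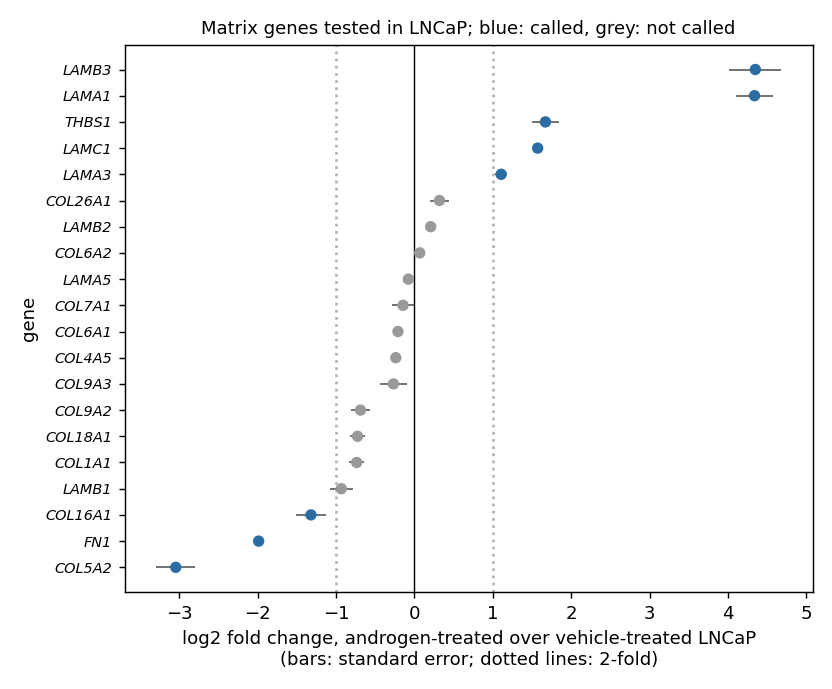
Log2 fold change of androgen-treated over vehicle-treated LNCaP cells for the 20 matrix genes tested, with standard error bars and dotted lines at 2-fold. The 5 called higher include 4 laminin chains (LAMB3 4.35, LAMA1 4.34, LAMC1 1.57, LAMA3 1.11) and the 3 called lower are COL5A2 (-3.04), FN1 (-1.99) and COL16A1 (-1.32).

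Promoter stretches are shown for LAMC1 and FN1, the members with the most RNA that moved with androgen, and for LAMB3, with the largest fitted change. The letters searched included the GC box GGGCGG, bound by SP1-type factors. In RefSeq windows of 300 bases around the start (GRCh38.p14), present for 51 of the 66 members, GGGCGG on either strand occurred in 30 members (58.8%) and in 44.6% of all 27305 promoters. The half-site letters AGAACA of the steroid receptor element, on either strand, occurred in 5 of the 51 members (9.80%) and in 14.9% of all promoters, and the whole element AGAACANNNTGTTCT in none of the members and 1 promoter in all. A match is a description of letters, not a binding site. Below are the 250 bases before the start of LAMC1 (chr1:183023170-183023419, plus strand), LAMB3 (chr1:209652426-209652675, minus strand) and FN1 (chr2:215436069-215436318, minus strand), written 5′ to 3′ on the strand of the gene with GC boxes of either orientation in capitals. AGAACA was absent from these 3 stretches, though LAMB3 held it within its window just after the start. The stretches held 3, 1 and 6 GC boxes, overlapping ones counted singly.
LAMC1: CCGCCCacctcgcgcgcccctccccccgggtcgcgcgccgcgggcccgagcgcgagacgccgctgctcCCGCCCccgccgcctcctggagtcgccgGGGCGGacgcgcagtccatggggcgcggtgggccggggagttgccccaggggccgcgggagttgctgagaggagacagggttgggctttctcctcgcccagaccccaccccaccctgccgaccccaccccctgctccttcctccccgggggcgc
LAMB3: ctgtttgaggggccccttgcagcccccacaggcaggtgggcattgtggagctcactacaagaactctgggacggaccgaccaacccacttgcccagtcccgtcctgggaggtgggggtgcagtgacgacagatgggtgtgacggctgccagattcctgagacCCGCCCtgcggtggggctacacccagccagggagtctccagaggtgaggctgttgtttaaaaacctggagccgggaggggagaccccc
FN1: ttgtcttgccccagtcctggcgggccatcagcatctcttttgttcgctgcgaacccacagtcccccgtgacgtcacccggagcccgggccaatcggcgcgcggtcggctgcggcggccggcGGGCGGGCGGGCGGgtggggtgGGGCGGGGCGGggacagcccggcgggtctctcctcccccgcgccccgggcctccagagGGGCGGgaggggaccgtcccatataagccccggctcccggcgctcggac

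PC3 cells were compared with each LNCaP group in turn. These comparisons share the PC3 libraries and are not independent. Against androgen-treated LNCaP cells, 36 members were tested, of which 28 were called higher in PC3, 3 lower and 5 neither way, beside 24.0% called higher and 22.1% lower over all 12541 genes. Against vehicle-treated cells, 37 members were tested, of which 27 were called higher in PC3, 3 lower and 7 neither way, beside 22.2% higher and 21.0% lower over all 12686 genes. The median log2 fold change of the members was 4.36 and 3.95, as compared to 0.04 and 0.03 over all genes. Setting 2 and 4 members with no LNCaP or PC3 library above 3 counts to their lower bound left both medians in place. It could not have moved them, because each bound lay on the same side of the median as the fitted value. Genes with slightly more LNCaP counts, such as COL6A3, were not set to a bound. Of the 36 and 37 members, 19 and 20 passed the filter through PC3 alone, and 2 and 2 through LNCaP alone, and so had to differ. The latter were LAMA1 and COL26A1 against androgen-treated and COL9A3 and COL26A1 against vehicle-treated cells, all among the members called lower. In all 6 libraries 15 and 14 members passed, of which 9 and 7 were called higher in PC3 and 1 and 1 lower. Over all genes that passed in all 6, 16.9% and 16.1% were called higher and 17.9% and 15.6% lower. Called members had adjusted p-values of at most 1.48e-05 against androgen-treated and 0.000110 against vehicle-treated cells. Below, each pair of log2 fold changes (± SE) is for PC3 against androgen-treated and then against vehicle-treated LNCaP cells.

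Type VI collagen, which forms beaded filaments between the basement membrane and the interstitial matrix, was the most abundant collagen of PC3 cells. COL6A1 (21:45981770-46005050, plus strand) was at 870, 915 and 1204 CPM in PC3, 119 to 130 CPM after androgen and 130 to 154 CPM after vehicle (2.98 ± 0.14 and 2.78 ± 0.14). Its neighbour COL6A2 (21:46098112-46132848, plus strand) was at 791, 799 and 962 CPM, 45.0 to 55.0 CPM and 45.6 to 48.3 CPM (4.08 ± 0.12 and 4.17 ± 0.10). Both were thus well expressed in LNCaP cells. The third chain, COL6A3, separated the lines more sharply, with 3130, 2987 and 4002 counts in PC3 as compared to 24, 0 and 1 counts after androgen and 4, 2 and 1 after vehicle (8.41 ± 0.50 and 10.08 ± 0.23). Without androgen-treated library 1 the log2 fold change of COL6A3 was 12.15, against libraries at 0 and 1 counts, and without vehicle library 1 it was 10.69. Of the remaining type VI chains, COL6A5 had at most 1 count and COL6A6 none.

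Fibrillar collagen RNA differed mainly in COL5A2, at 422, 407 and 348 CPM in PC3, 0.735 to 1.90 CPM after androgen and 7.79 to 11.1 CPM after vehicle (8.41 ± 0.26 and 5.38 ± 0.15). Without androgen-treated library 1 the first of these became 9.02. COL5A1, its usual partner chain, was lower, at 10.2 to 12 CPM in PC3 and at most 1.64 CPM in LNCaP cells (5.27 ± 0.23 and 2.99 ± 0.17). Of its stranded reads, 16.4% lay on the opposite strand, and with unstranded counts the fold changes of COL5A1 were 3.07 and 1.99 on the log2 scale. Per kb, PC3 cells held 53.6 CPM of COL5A2 and 0.97 CPM of COL5A1. COL1A1 was at 33.1 to 42.0 CPM in PC3, 12.3 to 15.2 CPM after androgen and 20.5 to 23.3 CPM after vehicle, which was called against the former (1.51 ± 0.13) and not the latter (0.80 ± 0.11, adjusted p = 0.000215). COL1A2, with which COL1A1 normally forms type I collagen, had at most 6 counts in any library. COL27A1, a cartilage collagen (5.27 ± 0.30 and 3.95 ± 0.25), and COL3A1 (5.20 ± 0.44 and 2.39 ± 0.29) were higher in PC3, at 18.2 to 27.4 CPM and 3.54 to 6.74 CPM as compared to at most 1.65 and 1.07 CPM in LNCaP cells.

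Type IV collagen genes lie in head-to-head pairs that share a promoter region, and the values differed between pairs. COL4A1 and COL4A2, the chains of most basement membranes, start 127 bases apart on chromosome 13 by RefSeq and were both higher in PC3. COL4A1 (13:110148963-110307157, minus strand) had 852, 871 and 1191 counts in PC3, 14, 5 and 3 after androgen and 6, 1 and 0 after vehicle (6.79 ± 0.32 and 8.28 ± 0.40). COL4A2 (13:110305812-110513209, plus strand) had 2128, 2086 and 2309 counts, 42, 26 and 23 counts and 43, 39 and 35 counts (5.93 ± 0.16 and 5.45 ± 0.11). Per kb, COL4A2 was at 4.66 CPM and COL4A1 at 2.73 CPM in PC3. The COL4A1 values rested partly on single libraries: without androgen-treated library 1 its log2 fold change was 7.61, without vehicle library 1 it was 10.30 and without vehicle library 3 it was 7.70.

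COL4A5 and COL4A6 start 380 bases apart on chromosome X by RefSeq, and COL4A6 was called but COL4A5 was not. COL4A5 (X:108439838-108697545, plus strand) was at 47.3 to 50.9 CPM in PC3, 52.8 to 58.3 CPM after androgen and 61.0 to 67.5 CPM after vehicle (-0.20 ± 0.07, adjusted p = 0.0284, and -0.42 ± 0.07, adjusted p = 0.000634). COL4A6 (X:108155607-108439497, minus strand) was at 11.7, 11.1 and 7.36 CPM in PC3 as compared to 1.43 to 1.81 CPM after androgen and 1.09 to 1.76 CPM after vehicle (2.59 ± 0.22 and 2.83 ± 0.25). COL4A3 and COL4A4, a pair on chromosome 2 known from the kidney glomerulus, had at most 3 and 4 counts. The stretch between the starts of COL4A1 and COL4A2 (chr13:110307158-110307283, shown on the plus strand, the strand of COL4A2) and the 250 bases before the start of COL4A6 (chrX:108439459-108439708, minus strand) are given below for the contrast between a pair that differed together and a pair that did not, with GC boxes in capitals. The former was 80.2% G and C with 1 GC box, and the latter 44% with 0.
COL4A1 and COL4A2: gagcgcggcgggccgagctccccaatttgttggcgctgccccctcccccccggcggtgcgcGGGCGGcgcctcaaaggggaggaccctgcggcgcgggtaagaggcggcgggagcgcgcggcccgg
COL4A6: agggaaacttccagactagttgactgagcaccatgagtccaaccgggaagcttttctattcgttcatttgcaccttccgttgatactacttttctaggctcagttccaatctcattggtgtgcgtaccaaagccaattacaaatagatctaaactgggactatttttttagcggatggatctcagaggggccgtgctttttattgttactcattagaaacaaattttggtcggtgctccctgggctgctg

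Other collagens fell on both sides. COL13A1, a transmembrane collagen, had 3403, 3433 and 4699 counts in PC3 as compared to 25, 1 and 4 after androgen and 18, 5 and 8 after vehicle (8.33 ± 0.43 and 8.17 ± 0.28). Without androgen-treated library 1 the former was 10.25, and without vehicle library 1 the latter was 8.84. COL12A1, which coats type I fibres, was at 92.2 to 128 CPM in PC3 and at most 1.62 CPM in LNCaP cells (6.35 ± 0.19 and 6.45 ± 0.20). COL18A1 was at 73.5 to 82.8 CPM in PC3, 11.6 to 14.8 CPM after androgen and 21.0 to 23 CPM after vehicle (2.51 ± 0.11 and 1.81 ± 0.08). COL8A1, a short-chain network collagen, had 97, 104 and 102 counts in PC3, 1, 0 and 2 after androgen and none after vehicle, so that it was at least 26-fold and at least 24.2-fold higher in PC3. These bounds set the lowest library of the higher group against 3 counts per library.

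A few collagens were higher in LNCaP cells. COL26A1 (7:101362875-101559024, plus strand), a glycoprotein-like collagen described in testis and ovary, had 0, 3 and 3 counts in PC3, 151, 131 and 129 after androgen and 109, 87 and 105 after vehicle, at least 47.5-fold and at least 34.4-fold lower in PC3. COL9A3 (-1.51 ± 0.17) and COL9A2 (-1.15 ± 0.14) were lower in PC3 than in vehicle-treated cells, at 1.30 to 1.67 and 4.11 to 4.45 CPM as compared to 3.72 to 4.91 and 8.43 to 11 CPM. Against androgen-treated cells COL9A2 was not called (-0.49 ± 0.12, adjusted p = 0.00510) and COL9A3, with 74, 89 and 62 counts there, was not tested, because the filter used CPM before TMM scaling and only 2 of these libraries exceeded 3 CPM by it. It was called lower in PC3 with unstranded counts (-1.44), with all 9 libraries in one fit (-1.27) and without a filter (-1.25). COL7A1 was at 5.98 to 9.52 CPM in PC3 and 9.57 to 14.8 CPM in LNCaP cells and was not called (-0.72 ± 0.22, adjusted p = 0.0171, and -0.84 ± 0.20, adjusted p = 0.00525), although without PC3 library 3 the second value was -1.12 and called. COL16A1, at 2.95 to 3.19 CPM in PC3, was not called against vehicle (-0.34 ± 0.14, adjusted p = 0.0554).

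Laminin chains also differed between the lines. The anchoring laminin chain LAMB3 was at 93.2 to 93.9 CPM in PC3. LAMB3, with 2343, 2088 and 2369 counts, was 4.64 ± 0.12 and 9.02 ± 0.18 higher on the log2 scale. LAMA3, the α chain it pairs with, was not called: it was at 119, 129 and 184 CPM in PC3, below the androgen-treated (-0.71 ± 0.17, adjusted p = 0.00421) and near the vehicle-treated level (0.42 ± 0.17, adjusted p = 0.0514). LAMA3 RNA was thus present in all groups, whereas LAMB3 exceeded 3 CPM in PC3 and, at a low level, after androgen.

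LAMB1 was at 326, 312 and 252 CPM in PC3 and at most 8.91 CPM in LNCaP cells (6.11 ± 0.16 and 5.20 ± 0.14), and LAMA5 at 463, 414 and 740 CPM as compared to 67.5 to 79.8 CPM (2.91 ± 0.22 and 2.86 ± 0.22). LAMC3, a γ chain of low level, was at 5.86 to 8.54 CPM and under 1 CPM (3.84 ± 0.29 and 2.95 ± 0.23). LAMB2, at 270, 244 and 391 CPM in PC3, was not called (0.63 ± 0.17, adjusted p = 0.00820, and 0.85 ± 0.17, adjusted p = 0.00191). LAMC1 and LAMA1 were lower in PC3 than in androgen-treated cells. LAMC1 was at 134, 131 and 121 CPM in PC3, with a log2 fold change of -2.46 ± 0.10 against androgen-treated and -0.87 ± 0.06 against vehicle-treated cells, the latter not called (adjusted p = 4.53e-06). LAMA1, with 9, 3 and 1 counts in PC3, had a fitted difference of -7.31 ± 0.42 against androgen-treated cells, which was -8.35 without PC3 library 1, and it was not tested against vehicle-treated cells, where it had 26, 21 and 34 counts.

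Of the glycoproteins, 8 were tested in each comparison and all 8 were called higher in PC3, although 6 and 7 of them passed the filter through PC3 alone. FN1 was at 1489, 1383 and 2111 CPM in PC3 (3.92 ± 0.18 and 1.95 ± 0.16), so that vehicle-treated LNCaP cells lay between PC3 and androgen-treated cells. TNC, tenascin-C of remodelling stroma, had 5302, 4313 and 6890 counts in PC3 as compared to 29, 2 and 3 after androgen and 11, 10 and 7 after vehicle (8.67 ± 0.45 and 8.83 ± 0.22), and FBN2, a fibrillin of developing microfibrils, had 8504, 7128 and 7090 as compared to 35, 3 and 8 and 19, 0 and 4 (8.71 ± 0.39 and 9.58 ± 0.42). Both were highest in the LNCaP libraries numbered 1. Without androgen-treated library 1 TNC was 10.76 and FBN2 10.12 higher, and without vehicle library 1 FBN2 was 11.47 higher on the log2 scale.

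FBN1, the main fibrillin of adult tissue, was at 43.1 to 49.0 CPM in PC3 and at most 1.91 CPM in LNCaP cells (4.83 ± 0.16 and 5.70 ± 0.12). SPARC was at 25.6, 28.8 and 25.6 CPM in PC3, 1.52 to 1.66 CPM after androgen and 0.0992 to 0.213 CPM after vehicle (4.04 ± 0.12 and 7.20 ± 0.19). THBS1 was at 56.3, 73.1 and 37.7 CPM in PC3 (2.95 ± 0.26 and 4.64 ± 0.28), and with unstranded counts the second value was 2.64. The nidogens, which tie laminin to type IV collagen, were at 21.3 to 28.3 CPM (NID1) and 4.96 to 7.86 CPM (NID2) in PC3. Against androgen-treated cells, with 4, 1 and 10 counts of NID1 and 3, 5 and 1 of NID2, they were 6.60 ± 0.36 and 5.50 ± 0.39 higher on the log2 scale, and NID1 was 7.60 higher without androgen-treated library 3. Against vehicle-treated cells, with no library above 2 counts of either, they were at least 133-fold and at least 31.0-fold higher. For NID2, 26.7% of the 74-nt stretches also occurred elsewhere, and for COL18A1 15.0%, so that their counts are less certain.

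**Figure D4:**
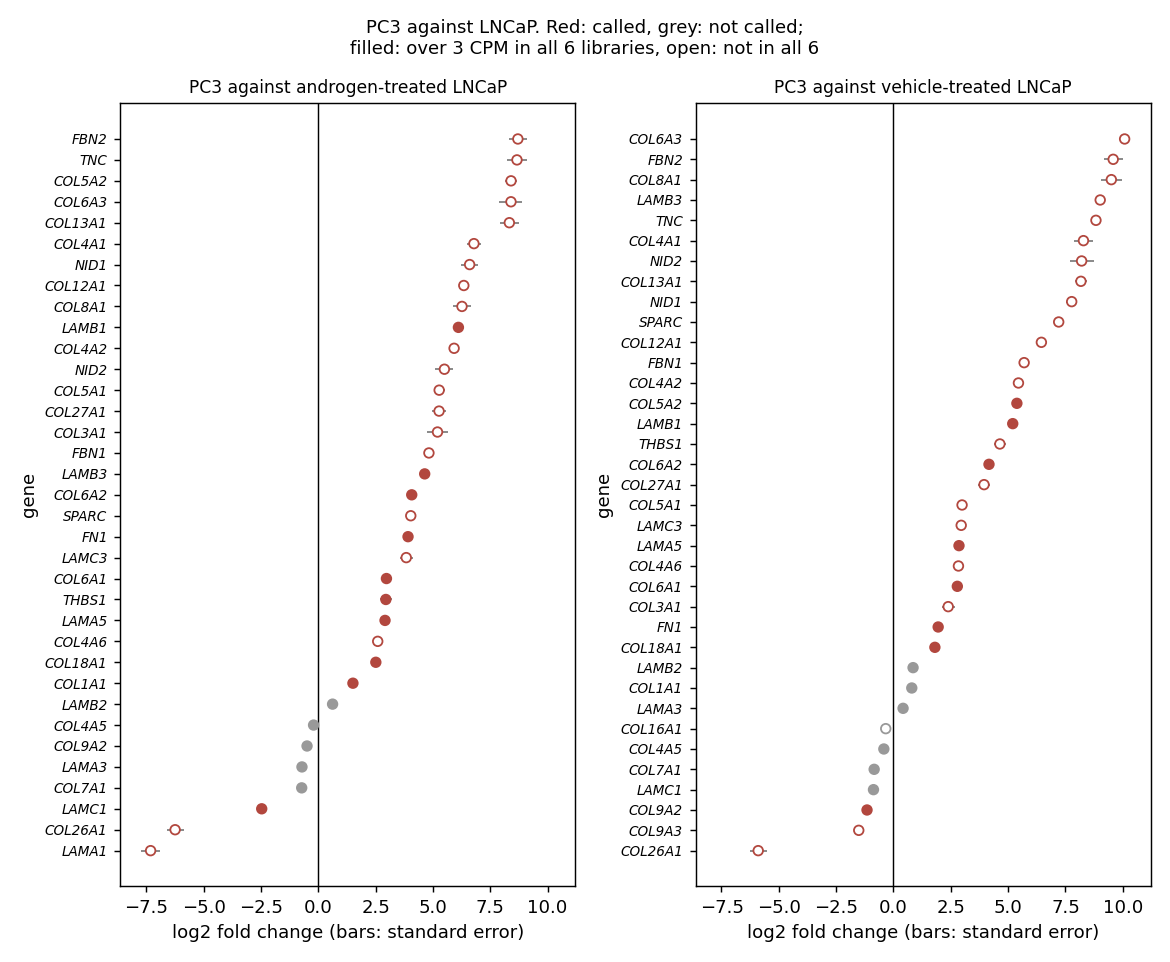
Log2 fold change of PC3 over androgen-treated (left, 35 genes) and vehicle-treated (right, 36 genes) LNCaP cells, with standard error bars. Filled points exceeded 3 CPM in all 6 libraries. LAMC1, COL26A1 and LAMA1 are called lower on the left, COL9A2, COL9A3 and COL26A1 on the right, and the size of open points far from 0 depends on very few LNCaP or PC3 counts.

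PC3 libraries varied among themselves for several large matrix genes. PC3 library 3 was the highest of the 3 for FN1 (2111 as compared to 1383 and 1489 CPM), COL6A1, COL6A2, LAMA3, LAMA5 and LAMB2, and the lowest for THBS1, LAMB1, FBN2 and COL5A2. The summed level of KLK3, KLK2, TMPRSS2 and STEAP2, abundant in LNCaP cells, was also highest there among PC3 libraries. It was 0.754% of the androgen-treated median as compared to 0.496% and 0.540%. Nearly all of this sum was TMPRSS2 (703, 544 and 974 counts in PC3 libraries 1, 2 and 3) and STEAP2 (326, 299 and 475). KLK3 had 2, 2 and 20 counts and KLK2 had 0, and the source of these reads was not tested. Without PC3 library 3 the counts of 28 and 27 members called higher did not change.

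Of the members below the limit of 3 CPM, LAMA4 (57, 53 and 135 counts), LAMA2 (59, 51 and 46) and COL21A1 (43, 29 and 47) were found in PC3 and had at most 2 counts in any LNCaP library. They were at least 15.2-fold, 12.2-fold and 8.75-fold higher in PC3 than in androgen-treated cells. COL2A1 had 29, 19 and 40 counts in PC3, at most 1 after androgen and 2, 7 and 3 after vehicle. COL23A1, a transmembrane collagen, was at 0 in PC3, 17, 31 and 26 after androgen and 3, 4 and 4 after vehicle, which places it at least 5.83-fold lower in PC3 than in androgen-treated cells. COL8A2 had 20 to 28 counts in PC3, 2 to 8 after androgen and 11 to 21 after vehicle, and COL11A2 12 to 48 counts in all groups. At most 20 counts in any library were found for COL14A1, COL15A1, COL17A1, COL1A2, COL20A1, COL24A1, COL28A1, COL4A3, COL4A4, COL5A3, COL6A5, COL9A1, LAMB4, THBS2 and VTN, and none for COL10A1, COL11A1, COL19A1, COL22A1, COL25A1 and COL6A6. COL17A1, of hemidesmosomes, reached 15 counts in PC3. VTN, vitronectin of liver and plasma, was at 0 in PC3 and reached 2 counts after androgen.

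Collagen chains must be hydroxylated, folded, exported, trimmed and cross-linked. Beside the members, 35 genes were examined, called maturation genes here. They were genes of these steps, the collagen receptors DDR1 and DDR2 and the laminin receptor DAG1. In LNCaP cells, 19 were tested, of which 2 rose after androgen and 1 fell, beside 6.54% called higher and 7.49% lower over all genes. Of the 17 above 3 CPM in all 6 libraries, 1 rose and 0 fell, beside 5.49% called higher and 5.55% lower over all such genes. LOX, which oxidises lysines for cross-links, had 210, 267 and 137 counts after androgen and 3, 10 and 2 after vehicle (log2 fold change 5.19 ± 0.39, adjusted p = 6.63e-08, and 6.19 without vehicle library 2). MIA3 (TANGO1), which exports bulky cargo such as procollagen from the endoplasmic reticulum, was at 734 ± 18.3 CPM (SD, n = 3) as compared to 316 ± 2.17 CPM (1.19 ± 0.04, adjusted p = 9.93e-12). TLL1, a tolloid protease that trims procollagen, had 8, 10 and 12 counts after androgen and 625, 712 and 917 after vehicle, a fall by 6.34 ± 0.20 (adjusted p = 1.65e-11).

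In PC3 cells, 15 of 31 maturation genes tested were called higher and 6 lower than in androgen-treated LNCaP cells, beside 24.0% and 22.1% over all genes. Against vehicle-treated cells 16 of 30 were called higher and 4 lower, beside 22.2% and 21.0%. Of the 31 and 30, 11 and 9 passed the filter through PC3 alone, and 2 and 1 through LNCaP alone, and so had to differ. Among those above 3 CPM in all 6 libraries, 2 of 16 were higher and 4 lower against androgen-treated cells, and 4 of 17 higher and 3 lower against vehicle-treated cells. Over all genes above that limit in all 6 libraries, 16.9% were called higher and 17.9% lower against androgen-treated cells. Against vehicle-treated cells these shares were 16.1% and 15.6%. SERPINH1, the collagen chaperone HSP47, had 2321, 1836 and 2619 counts in PC3, 12, 2 and 2 after androgen and 4, 4 and 2 after vehicle (8.45 ± 0.31 and 9.0 ± 0.20, with 9.78 for the former without androgen-treated library 1). Of the lysyl oxidases, LOXL2 had 2833, 2761 and 2225 counts in PC3 as compared to 18, 11 and 5 and 6, 9 and 8 (7.60 ± 0.27 and 8.05 ± 0.22, with 7.37 for the latter with unstranded counts). LOXL4 had 480, 364 and 557 counts and at most 3 in any LNCaP library, at least 110-fold and at least 102-fold higher in PC3. TGM2, a transglutaminase that cross-links matrix proteins, had 1612, 2010 and 1852 counts, 78, 104 and 31 after androgen and 4, 1 and 8 after vehicle (4.46 ± 0.33 and 8.35 ± 0.30, with 9.09 for the latter without vehicle library 3).

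Others were lower in PC3 than in at least 1 LNCaP group. LOX, at 20, 31 and 23 counts, was 3.28 ± 0.31 lower on the log2 scale than in androgen-treated cells. DDR2, a receptor for fibrillar collagen, had 31, 39 and 51 counts in PC3, 142 to 177 after androgen and 141 to 158 after vehicle (-2.24 ± 0.21 and -2.23 ± 0.19). PPIB, a prolyl isomerase of the hydroxylation complex, was at 261 ± 39.3 CPM in PC3, 929 ± 57.3 CPM after androgen and 536 ± 6.85 CPM after vehicle (-1.84 ± 0.12 and -1.06 ± 0.11). P3H4, a scaffold of lysyl hydroxylation (-1.33 ± 0.09), and TLL1 (-1.14 ± 0.22) were lower than in vehicle-treated cells, and TLL1 was not called without PC3 library 3 (-0.96). Against androgen-treated cells, where it had 8, 10 and 12 counts, TLL1 was 5.18 ± 0.32 higher in PC3, with 494, 483 and 308 counts (adjusted p = 1.63e-06).

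**Figure D5:**
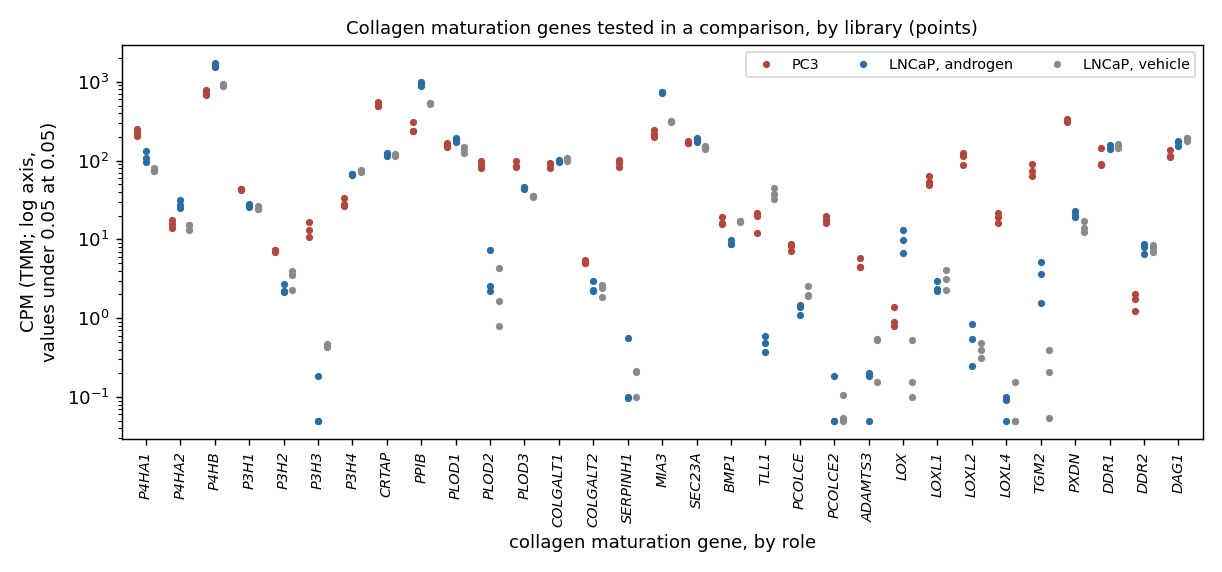
CPM (TMM scaled, log axis) of the collagen maturation genes tested in any comparison, one point per library, by role from hydroxylation to receptors. SERPINH1, LOXL2 and LOXL4 are near 0 in both LNCaP groups, LOX is highest in androgen-treated and TLL1 highest in vehicle-treated LNCaP cells.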

How the data were processed

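RNA of PC3, androgen-treated LNCaP and vehicle-treated LNCaP cells was sequenced as 74-nt reads after poly(A) selection. The submitters' processing notes list cutadapt 4.1, STAR 2.7.7a, UMI-tools 1.1.2 and GRCh38, and the gene annotation is not given in the sources used here. The authors deposited counts, whole numbers of reads per gene symbol without normalization. All 253944 of them equalled the forward-strand column of the deposited STAR output, and the unstranded column served as an alternative. The reverse column took at most 3.06% of stranded reads, and 20.3% to 25.4% of reads were not on genes.

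Genes above 3 CPM (before TMM scaling) in at least 3 libraries of a fit were kept. TMM factors and the quasi-likelihood F test came from edgeR 4.0.16 in R 4.3.3, fitted on the 6 libraries of each comparison and adjusted by Benjamini-Hochberg over all genes. Calls required adjusted p under 0.05 and 2-fold change or more. The study's batch term was left out, since no source used here names its batches. The SE was the log2 fold change divided by the square root of F. Where every library of one group was at 3 counts or fewer, the fold is a bound. Exon lengths (the union of all annotated exons of a gene) and locations were from GENCODE 44 (all 66 members and 25696 of 28216 symbols matched), and promoter windows from RefSeq. On simulated counts, 195, 200 and 199 of 200 changed genes were recovered (PC3 against androgen, androgen against vehicle, PC3 against vehicle), with 4, 0 and 1 false calls. The simulation used the spread fitted to these data and only changes well beyond 2-fold. Recovery of changes near the 2-fold limit was therefore not examined.

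Whether replicate numbers pair the libraries was checked on 10015 genes, by correlating each library's deviations from its group. Androgen and vehicle libraries of one number gave 0.15, 0.23 and 0.21 and those of different numbers -0.27 to 0.10. PC3 libraries gave -0.24 to 0.22 with androgen-treated and -0.20 to 0.17 with vehicle-treated libraries over all numbers. The highest of these, 0.22, was between PC3 library 3 and androgen-treated library 1. Whether LNCaP numbers mark pairs thus remained uncertain, since the only evidence was from the counts and values as large arose between the lines. The reported fits did not use this pairing, and only the alternative with a replicate block did. The members, gene lists and naming rule (members by level, with counts where low, and the 3 largest rises and falls among called maturation genes) were chosen with earlier results of these data known. Alternatives were DESeq2 1.42.0, the likelihood ratio test, a replicate block, other filters and thresholds, 1 fit of all libraries and leaving out each library. Of the members, 1 is counted in the totals but not reported here.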

Additional observations from a re-analysis of the deposited data

Results flagged for a closer look

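Reads on the strand opposite the gene, which the counts leave out, exceeded 20% of the reads and 27 reads in all for 4 members. They numbered 1501 for THBS1, 304 for THBS2, 292 for NID2 and 32 for COL4A3, over the 9 libraries. For COL4A3 they were 82.1% and for NID2 36.6% of the stranded reads, while COL4A3 had at most 3 counts in a library. For THBS2 they were 98.1% of the stranded reads. Its unstranded count exceeded the stranded one by 19 to 51 reads per library, and the stranded count never exceeded 2. For THBS1 the unstranded count exceeded the stranded one by 203 to 336 reads in PC3, 88 to 95 after androgen and 152 to 166 after vehicle. The source of these reads was not tested.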

How the results depend on the processing

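Under another setting, counts of called genes stayed within 1.5 times the reported count in 141 repeats and moved further in 15. Without a filter on low counts, members called lower in PC3 numbered 5 (against androgen) and 7 (against vehicle), and androgen called 8 members higher, 8 lower and 8 maturation genes. With at least 10 counts in every library, 16 members were called higher in PC3 against either LNCaP group, with 13 maturation genes against vehicle and 1 for androgen, since genes near 0 in one group are then not tested. By the adjusted p-value alone, members called lower numbered 7 and 6 in PC3 and 9 for androgen, with 14 maturation genes. With all 9 libraries in one fit, where more genes pass the filter, androgen called 6 members lower (COL3A1, COL5A1 and COL27A1 added) and 6 maturation genes. The fit with the replicate block gave 28 and 3, 5 and 3, and 27 and 3 members called higher and lower in the order of the comparisons PC3 against androgen, androgen against vehicle and PC3 against vehicle, and no call of a member changed, with 22, 3 and 20 maturation genes called. The log2 fold change of COL7A1 for androgen ranged from -0.30 to 0.0043 without each library in turn, the latter, a reversal, without androgen-treated library 1. With the replicate block and a likelihood ratio test, COL6A3, TNC and COL13A1 were 9.88, 9.36 and 8.98 higher in PC3 than after androgen. Tested against a fold of 2, COL16A1 and LAMA3 (androgen) and COL9A2 and TLL1 (PC3 against vehicle) lost their calls. Leaving both libraries numbered 1 out of the LNCaP comparison, an alternative chosen after seeing the data, gave 5 members higher and 4 lower. Members at a few counts cannot be sized at this depth.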
